A study of Caenorhabditis elegans with 9 samples.

Results

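Transcripts recovered with HZL-1::GFP made from the hzl-1 promoter were set against those recovered with HZL-1::GFP made from the intestinal nhx-2 promoter, in Caenorhabditis elegans dauer larvae labelled aak(0). Members were the protein-coding genes that reached at least 10 CPM, reads of the gene scaled to a common total of 1000000 over protein-coding genes, in the endogenous-promoter library or in the mean of the intestinal-promoter libraries. They numbered 12480 of 19645 coding genes, and the comparison used 4 of the 9 libraries of the series. All animals were hermaphrodites carrying a daf-2 mutation, kept at 25 °C for 96 hours, which was day 2 of dauer. RNA was extracted from anti-GFP beads after formaldehyde fixation of whole animals. The endogenous aak(0) group was 1 library of daf-2, aak(0) and hzl-1 mutants bearing the array Ex(hzl-1p::hzl-1::GFP). The intestinal aak(0) group was 3 libraries of the same mutants bearing Ex(nhx-2p::hzl-1::GFP). The design text gives aak(0) as loss of aak-1 and aak-2. For values set side by side, 1 endogenous and 3 intestinal libraries of daf-2; hzl-1 animals carried the same arrays, and 1 library of daf-2; aak(0) animals carried Ex(nhx-2p::GFP).

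AMP-activated protein kinase (AMPK) is the cell's energy sensor, and aak-1 and aak-2 encode its catalytic subunits. Dauer is an arrested larval stage that feeds on stored fat, and daf-2 encodes the insulin/IGF receptor whose mutation drives entry into it. The nhx-2 gene encodes a sodium/proton exchanger of the intestine, so its promoter confines the bait to gut cells. Both baits were read from extrachromosomal arrays, marked Ex, which are often present in many copies and lost from some cells, so that neither was made from the hzl-1 locus itself. Which tissues' transcripts follow the promoter was the question asked of the comparison. In such bulk material, fewer cells of a type and less RNA per cell cannot be told apart. Levels are not divided by an input library, so each holds both abundance and recovery. With 1 endogenous library and tables made separately for the promoters, the main comparison is a description with no test (a test added as an alternative is given beside the counts), and the promoter cannot be told apart from the preparation of that library.

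Coding reads totalled 15923668 in the endogenous aak(0) library and 1250317, 3009917 and 3245356 in intestinal aak(0) replicates 1 to 3. The intestinal replicates stood apart from each other. Replicate 1 had reads for 3936 coding genes, against 13611 and 17306 in replicates 2 and 3 and 15511 in the endogenous library. Across 8997 coding genes the log2 levels of replicates 2 and 3 correlated at Pearson r = 0.92, while replicate 1 correlated with them at 0.38 and 0.40 (genes are not independent replicates). The endogenous aak(0) library correlated at 0.31, 0.50 and 0.52 with the replicates in order. A floor of 3 reads was worth 0.188 CPM in the endogenous library and 2.40, 0.997 and 0.924 CPM in the intestinal replicates, and floors and intervals cover counting error only.

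The genes named by the labels were examined first. The hzl-1 gene (C44H9.4 in the files; 12835708 to 12839783 on chromosome V of WBcel235) had 724 CPM in the endogenous aak(0) library and 305, 540 and 504 CPM in the intestinal replicates. Its endogenous level lay above all 3, at 1.61 times their mean. The library labelled endogenous daf-2 held 0 reads of hzl-1, although its label gives an hzl-1::GFP array, while the intestinal daf-2 libraries held 379, 668 and 459 CPM. That library therefore went against its label.

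Transcripts of aak-2 (X, 16796087 to 16803357) also went against a label. The library labelled endogenous aak(0) held 5793 CPM of aak-2, from 92248 reads. The intestinal aak(0) replicates held 122.4, 37.5 and 73.0 CPM, and no daf-2 library exceeded the 246 CPM of the endogenous one. Genes on both sides of aak-2 were low in the endogenous aak(0) library, with 13.1 CPM for got-1.2 and 33.8 CPM for mec-4. Transcripts of aak-1 (III, 8756995 to 8761101) had 40.1 CPM there and 0, 29.2 and 41.3 CPM in the intestinal replicates, which overlap. The position of the deletions was not stated, and gene totals may hold reads from exons that remain, so aak-1 and aak-2 are weak checks. The nhx-2 gene (II, 7690711 to 7693957) had 40.3 CPM with the endogenous promoter and 149, 19.6 and 22.8 CPM with the intestinal one, so the groups overlap.

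Other transcripts set the endogenous aak(0) library with the intestinal aak(0) libraries and apart from daf-2. Transcripts of argk-1, an arginine kinase gene that buffers ATP through phosphoarginine (V, 16103894 to 16105950), reached 563005 CPM with the endogenous promoter. This was 56.3% of all its coding reads (exact 95% binomial interval 56.28% to 56.32%). The intestinal aak(0) replicates held 62151, 12986 and 35400 CPM, and the endogenous level was 15.3 times their mean. In the library labelled endogenous daf-2 argk-1 had 2 reads, and the intestinal daf-2 libraries held 3.07, 0 and 16.4 CPM. The genes beside argk-1 stayed low in the endogenous aak(0) library, with 12.3 CPM for cth-1 and 7.98 CPM for srxa-16. GFP alone recovered 1.00 FPKM of argk-1, against 3601, 905 and 2558 FPKM in the intestinal aak(0) replicates.

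The gene hmit-1.1, which encodes a transporter of myo-inositol (V, 18516789 to 18523875), had 19043 CPM with the endogenous promoter. The intestinal aak(0) replicates held 3871, 13295 and 11354 CPM, all below it, and the ratio to their mean was 2.00. No reads of hmit-1.1 were found in the library labelled endogenous daf-2. The 10 most abundant coding genes took 60.0% of coding reads in the endogenous aak(0) library, led by argk-1, hmit-1.1 and aak-2, against 9.83% to 13.4% in the intestinal aak(0) libraries.

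**Figure D1:**
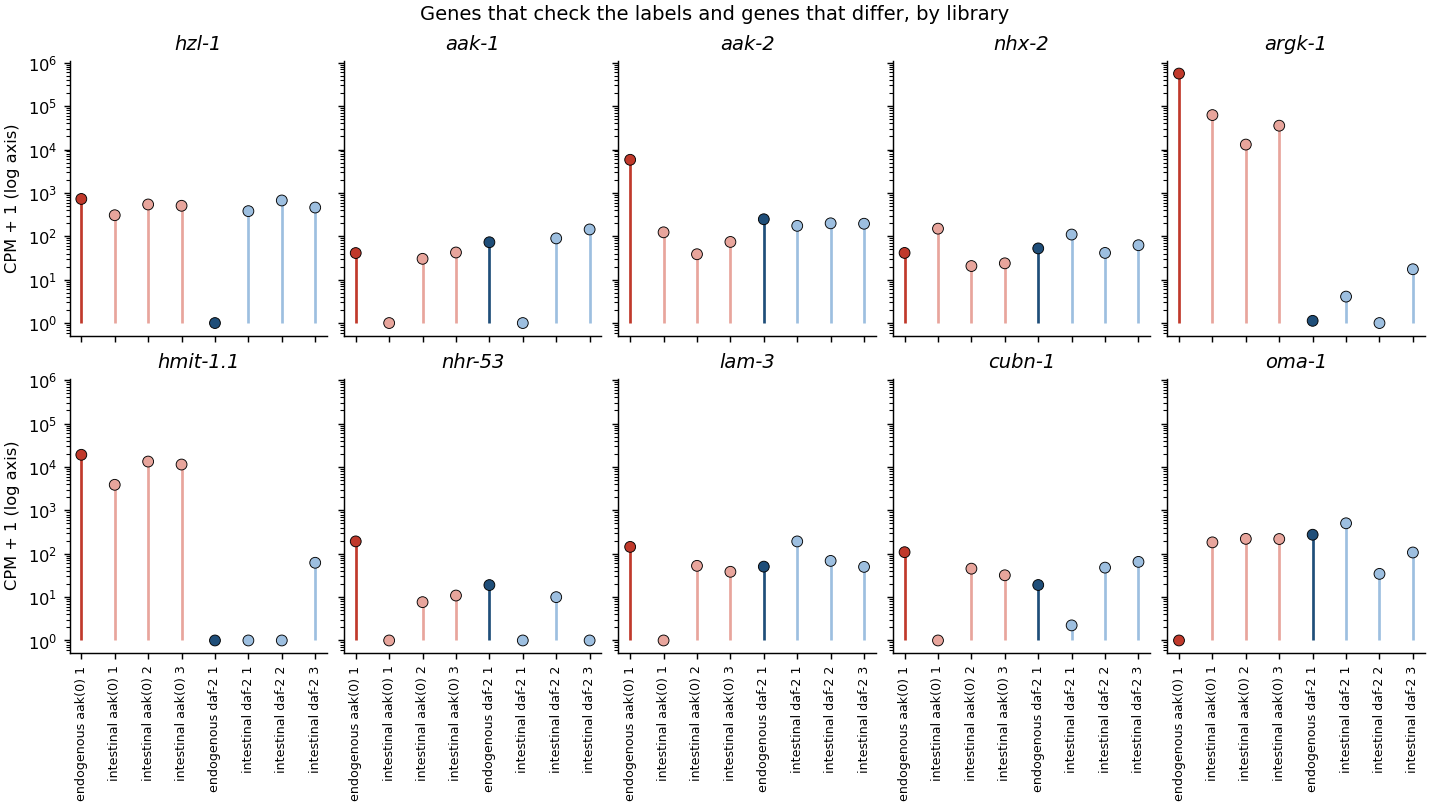
Level of 10 genes in each library, as CPM + 1 on a log axis, 1 point per library (red, endogenous aak(0); light red, intestinal aak(0); dark blue, endogenous daf-2; light blue, intestinal daf-2). The aak-2 level of 5793 CPM and the argk-1 level of 563005 CPM stand above every other library, and hzl-1 lies at 0 in the library labelled endogenous daf-2.

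A gene was called higher when its CPM + 1 with the endogenous promoter was at least 4 times the mean intestinal CPM + 1 and its level lay above all 3 intestinal libraries, and lower by the mirrored rule. By this description 3348 genes were higher (26.8% of the 12480 members) and 1318 were lower (10.6%). The minimum of 10 CPM was reached in both groups by 6135 genes, through the endogenous library alone by 4673 and through the intestinal mean alone by 1672. A gene that passed through 1 group had to be high there. Of the higher genes only 41 passed in both groups, while 919 of the lower ones did. At 100 CPM or more in the higher group, 6 genes were higher and 894 were lower. These came from unequal pools, 477 genes at that level in the endogenous library and 2141 in the intestinal mean. Replicate 1 listed 69.7% of the members at 0, which keeps them from being called lower, and without that replicate 2853 genes were higher and 2627 lower. The median log2 ratio over all coding genes was -0.02.

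The split between directions moved with the scaling. Because argk-1 took over most of the coding reads of the endogenous library, all its other CPM values are low by the same factor. Leaving argk-1 out of the scaling moved the median of all coding genes to 0.56 and gave 6492 higher and 494 lower genes. The share of calls that were higher was 71.8% as reported, 92.9% without argk-1, 95.2% with median-of-ratios factors, 91.4% with TMM factors and 94.9% over all gene reads. The medians of all coding genes under the last 3 were 0.80, 0.15 and 0.99. Directions of gene groups are therefore given below against the median of all coding genes. The quasi-likelihood test of edgeR, which assumes that the single library varies like the 3 intestinal ones, called 1 of 12480 genes, aak-2 (adjusted p = 0.00495), with 158 genes at an unadjusted p under 0.05.

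The endogenous aak(0) library had a flatter range of levels than the intestinal ones. Genes at 1 to 3 CPM in the intestinal mean had a median of 8.29 CPM with the endogenous promoter, and those at 10 to 30 CPM had 14.9 CPM. Genes at 300 to 1000 CPM had 105 CPM. Between the bins at 10 to 30 and at 300 to 1000 CPM the intestinal median rose 26.6-fold and the endogenous median 7.05-fold. In the daf-2 libraries the same bins differed by 22.7-fold and 25.4-fold. A gene at low intestinal level therefore tended to be called higher in aak(0), and one at high intestinal level lower.

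**Figure D2:**
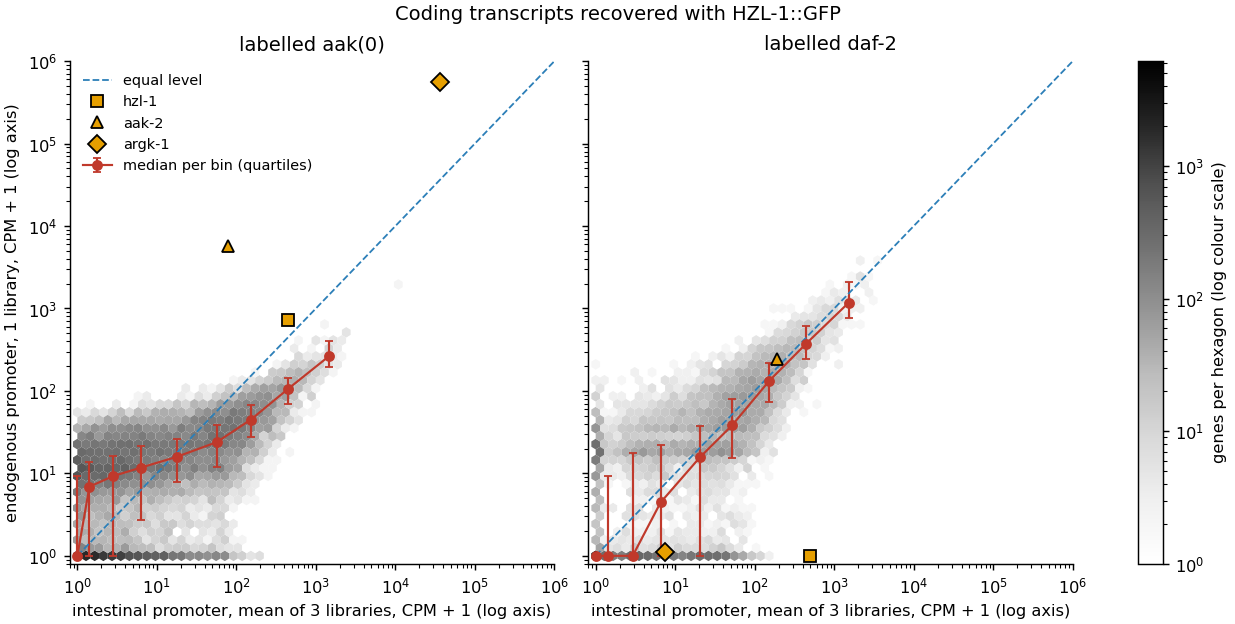
Level with the endogenous promoter against the mean of 3 intestinal libraries for all coding genes, as CPM + 1 on log axes, for libraries labelled aak(0) and daf-2. Grey shades count genes, red points are medians of bins of intestinal level with quartiles, and the dashed line marks equal levels. The red line is flatter than the dashed one in aak(0), from 8.29 CPM to 105 CPM between the bins at 1 to 3 and 300 to 1000 CPM.

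Genes of chemosensory receptors, G protein-coupled receptors used by a few sensory neurons each, showed this low level most plainly. They were chosen after their values were seen. The 1273 such genes had a median of 68.4 reads per kb of gene span in the endogenous aak(0) library, and 72.8% of them had a read. In intestinal replicates 1 to 3 their medians were 0, 0 and 1.90 reads per kb, and in the library labelled endogenous daf-2 the median was 0. F-box genes had 71.6 reads per kb, C-type lectin genes 79.2 and all coding genes 78.9. Of the 518 chemoreceptor genes that passed the minimum, 451 were higher, but 484 had passed through the endogenous library alone. Of all 3348 higher genes, 68.4% had no more than 212 reads per kb, the 90th percentile of chemoreceptor genes. The upper quartile of all coding genes was 167 reads per kb, so a larger share of all coding genes lay at or under 212. Of the 4673 genes that passed through the endogenous library alone, 3411 did.

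Reads outside annotated genes moved with this library as well. They made up 48.6% of its reads (30835167), against 4.11% in the library labelled endogenous daf-2. Ribosomal RNA took 29.96% of its gene reads, against 78.9% to 80.5% in the intestinal aak(0) libraries. Pseudogenes took 0.962% of gene reads, against 0.175% to 0.277%, and piRNA genes 0.339%, against 0.012% to 0.014%. The part of these features in the higher calls was not tested.

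**Figure D3:**
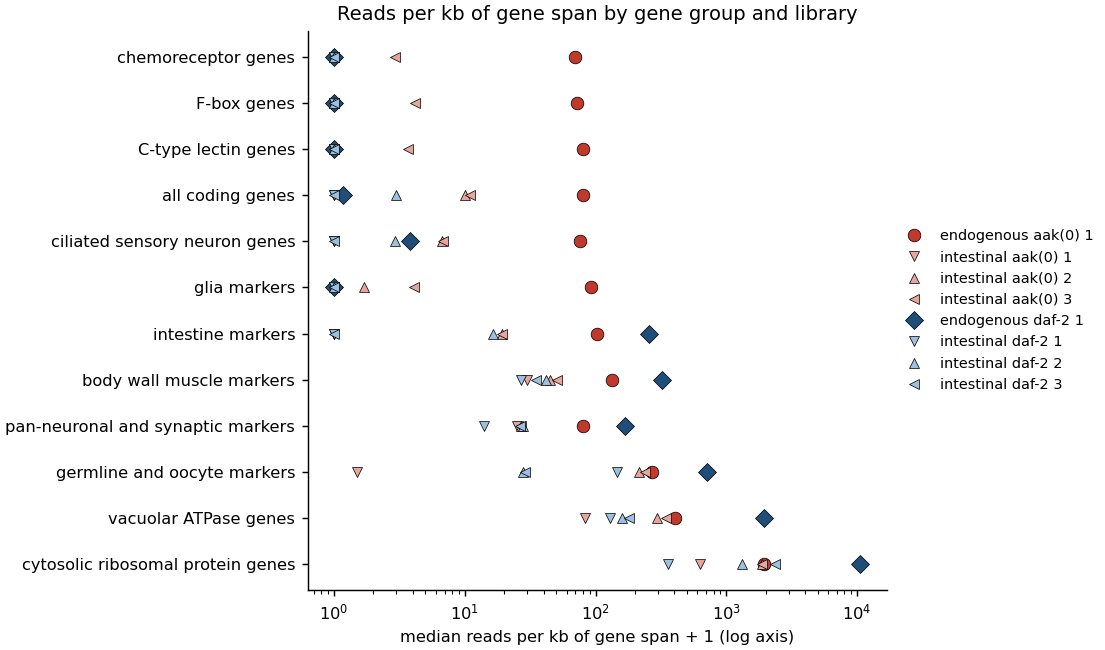
Median reads per kb of gene span, plus 1, on a log axis, for 12 gene groups in each library. In the endogenous aak(0) library (large red circles) groups from chemoreceptor genes (68.4) to pan-neuronal markers (79.8) and intestine markers (102) lie close together, and ribosomal protein genes reach 1940.

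Tissue lists were described in the same way, over all listed members, first against all coding genes and then against coding genes in the same bin of intestinal CPM. Against all coding genes the medians of 5 of the 17 tissue lists lay above 0. These were coelomocyte, glia, ciliated sensory neuron, touch receptor neuron and intestine lists. The same 5 lay above 0 under the 4 planned scalings and without argk-1, and the intestine, ciliated and touch lists fell below 0 (-0.15, -0.23 and -0.91) once the chemoreceptor median per kb was subtracted in each library. Against genes of the same intestinal level 9 lists lay above 0, so the number of lists above 0 differed between the measures. Over members that passed in both groups, median log2 ratios were -0.67 for intestine, -0.36 for ciliated, -0.50 for touch receptor and -1.03 for glia lists. The median of all 6135 genes that passed in both groups was not computed, so these values have no matching reference. Of those 6135 genes 41 were higher and 919 lower. No coelomocyte marker passed in both. Calls can fall only on members that passed, and stand beside 26.8% higher and 10.6% lower over all genes in the main setting. Over all genes the shares were 46.8% and 2.35% with median-of-ratios factors, 37.1% and 3.51% with TMM and 42.7% and 2.31% over all gene reads. They were 44.4% and 3.38% without argk-1, 22.3% and 20.6% without replicate 1, and 18.3% and 21.2% less the chemoreceptor median. Calls in the lists moved with the scaling as the counts over all genes did, and so did the number that passed.

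Intestine markers are genes of the tissue in which the nhx-2 promoter is active. Of 25 members 21 passed, 0 were higher and 1 was lower. These counts turned with the scaling, to 9 higher and 0 lower with median-of-ratios factors, 8 and 0 without argk-1, 7 and 0 over all gene reads and 5 and 0 with TMM. As shares of the members that passed, these higher counts lay near or under those over all genes in the same settings. Without replicate 3 they were 4 and 2. Their median log2 ratio was 0.23 above that of all coding genes, and 0.58 above coding genes of the same intestinal level, with 19 of 25 members above. The aspartic protease gene asp-1 had 134 CPM with the endogenous promoter and 133, 94.4 and 118.6 CPM with the intestinal one. The gut V-ATPase subunit gene vha-6 had 86.98 CPM against 89.6, 260 and 217 CPM. The desaturase gene fat-6 had 70.1 CPM against 407, 68.1 and 82.6 CPM. Only fat-6 lay within the intestinal range, with asp-1 just above the highest replicate and vha-6 just below the lowest. The member called lower was ifo-1, which organises the intermediate filaments of gut cells, with 14.7 CPM against 179, 67.4 and 63.2 CPM. The gut identity factor gene elt-2, named after its values were seen, had 0 reads with the endogenous promoter and 0, 13.3 and 12.3 CPM with the intestinal one.

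Yolk protein genes, which the adult gut expresses, differed between libraries of the same promoter. The member vit-2 had 39.5 CPM with the endogenous promoter and 1837, 6.98 and 8.32 CPM in the intestinal aak(0) replicates, so replicate 1 alone lay above it. In the main setting no member of the 6 was called, and their median against all coding genes was -0.56. Without replicate 1 the median was 1.71, and 2 of the 4 that passed were higher. With median-of-ratios factors, and also without argk-1, 2 of the 5 that passed were higher.

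Epidermal lists held calls in both directions. Of 22 hypodermis and seam markers 20 passed, with 4 higher, a smaller share than over all genes, and 0 lower. Over all gene reads 8 were higher. The list had a median of -0.03 against all coding genes that turned positive under median-of-ratios scaling (0.66), TMM (0.71), all gene reads (0.62) and without argk-1 (0.49). The moulting gene mlt-10 had 37.8 CPM with the endogenous promoter and 0, 1.33 and 1.23 CPM with the intestinal one. The sterol-sensing gene che-14 had 44.02 CPM against 0, 0 and 6.16 CPM. Both are absent from every daf-2 library. Of 172 cuticle collagens, the structural proteins of the worm's coat, 72 passed, with 31 higher and 13 lower. Of the 72 that passed, 42 had done so through the endogenous library alone. The list had 50.5 reads per kb in the endogenous aak(0) library, 0.74 times the chemoreceptor median. With median-of-ratios factors 94 passed, with 62 higher and 7 lower. At a minimum of 30 CPM 20 passed, with 1 higher and 9 lower. With a pseudocount of 5 CPM 6 were higher and 10 lower. Over all genes these 2 settings gave 708 higher and 1277 lower, and 1376 and 1206. The collagen gene col-50 had 0 reads against 510, 47.5 and 46.2 CPM, while rol-6 had 319 CPM against 146, 274 and 255 CPM.

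Muscle markers had a median below that of all coding genes, and their calls turned with the scaling. Of 32 body wall muscle markers 31 passed, with 0 higher, 5 lower and a median of -1.42. With median-of-ratios factors 6 were higher and 1 lower, as over all gene reads, and without argk-1 6 were higher and 2 lower. These higher counts were smaller shares than over all genes in the same settings. Against coding genes of the same intestinal level the median was 0.22, with 19 of 32 members above. The myosin heavy chain gene unc-54 had 154 CPM with the endogenous promoter and 6058, 702 and 702 CPM in the intestinal replicates. The giant sarcomere protein gene ttn-1 had 1023 CPM against 2065, 996 and 927 CPM, within the intestinal range. Of 21 pharynx markers 12 passed, 5 were higher and 2 lower, and the pharyngeal myosin genes myo-1 and myo-2 differed. The former had 374 CPM against 1030, 285 and 385 CPM, and the latter was lower at 216 CPM against 2036, 283 and 346 CPM.

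Neuronal lists differed in abundance. Of 28 pan-neuronal and synaptic markers, genes of vesicle release and peptide processing that all neurons use, 26 passed, 0 were higher and 5 lower, or 1 and 1 with median-of-ratios factors. Their median was -1.19 against all coding genes and 0.38 against genes of the same intestinal level. The proprotein convertase gene egl-3 had 379 CPM against 1624, 554 and 435 CPM. The ER protein gene maco-1 was lower at 24.9 CPM against 1206, 366 and 320 CPM, and the synaptobrevin gene snb-1 at 45.7 CPM against 154, 226 and 210 CPM. Such transcripts were present with the intestinal bait, and GFP alone recovered this list at a median of 5.90 FPKM, against 8.39, 3.82 and 3.62 FPKM in the intestinal aak(0) replicates.

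Lists for particular neurons had lower median levels than pan-neuronal markers in the intestinal libraries, and went both ways against all coding genes. Of 41 ciliated sensory neuron genes 15 were higher and 0 lower, and of the 32 that passed 19 had done so through the endogenous library alone. Without replicate 1 there were 9 higher and 1 lower, with median-of-ratios factors 25 and 0, and less the chemoreceptor median 6 and 7. The list's median was 1.56 against all coding genes and 0.97 against genes of the same intestinal level. The ciliary trafficking gene bbs-2 had 40.1 CPM with the endogenous promoter and 0, 0 and 1.54 CPM with the intestinal one. The sensory channel gene tax-4 had 32.8 CPM against 0, 2.33 and 3.08 CPM. Both had 0 reads in the library labelled endogenous daf-2. The list had 74.5 reads per kb in the endogenous aak(0) library, 1.09 times the chemoreceptor median.

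Of 11 touch receptor neuron genes 9 passed, with 4 higher and 0 lower and a median of 0.92. All 4 had passed through the endogenous library alone. The list had 52.3 reads per kb in the endogenous aak(0) library, 0.76 times the chemoreceptor median. Without replicate 1 there were 2 higher and 1 lower. The channel gene mec-4, which lies beside aak-2, had 33.8 CPM against 0, 0.664 and 3.70 CPM. The touch cell channel partner gene mec-10 had 27.6 CPM against 0, 0 and 4.62 CPM. Of 19 neurotransmitter genes 15 passed and 3 were higher, a smaller share than over all genes, led by tbh-1 for octopamine synthesis with 31.9 CPM against 0, 0 and 4.31 CPM, and 1 was lower, the acetylcholinesterase gene ace-1 with 8.73 CPM against 340, 36.5 and 17.6 CPM. Serotonin's synthesis gene tph-1 had 39.9 CPM against 0, 7.64 and 1.54 CPM. Against all coding genes the neurotransmitter list had a median of -0.21 and the neuropeptide list -0.37. Of the neuropeptide genes 65 passed, with 10 higher and 4 lower, both smaller shares than over all genes. Without replicate 1 there were 5 higher and 9 lower, and with median-of-ratios factors 30 and 1. The peptide gene flp-15 had 36.9 CPM against 0, 5.65 and 4.31 CPM, and nlp-21 had 0 reads against 232, 48.2 and 34.5 CPM.

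Glia and small tissues rested on few genes. Of 14 glia markers 10 passed, with 7 higher and 0 lower, all 7 of them passing through the endogenous library alone. The list's median was 2.13 against all coding genes and 1.04 against genes of the same intestinal level. The glial channel-forming gene daf-6 had 34.5 CPM against 0, 0.332 and 4.31 CPM, and the member with the highest endogenous level, fig-1, had 105 CPM against 59.2, 15.6 and 23.4 CPM. The glia list had 92.1 reads per kb. Of 9 excretory cell markers 8 passed, with 1 higher and 3 lower, or 3 and 1 with median-of-ratios factors. The excretory canal gene exc-4 was lower, with 26.4 CPM against 160, 135 and 111 CPM. The P-glycoprotein transporter gene pgp-12 was higher, with 56.6 CPM against 0, 1.99 and 12.9 CPM. Of 3 coelomocyte markers 2 passed, both through the endogenous library alone, and both were higher. The member unc-122 had 24.5 CPM against 0, 10.96 and 1.54 CPM, and cup-4 had 0 reads. Of 10 somatic gonad markers 6 passed, with 1 higher and 0 lower.

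Germline markers were called lower or not called in the main setting. Of 39 germline and oocyte markers, all of which passed, 0 were higher and 10 lower. Without replicate 1 there were 0 higher and 21 lower. Over all gene reads there were 1 and 3, with median-of-ratios factors 1 and 5, and without argk-1 1 and 6. The list had a median of -1.65 against all coding genes and -0.11 against genes of the same intestinal level. The P granule helicase gene glh-1 had 9.67 CPM against 322, 210 and 275 CPM, and the P granule scaffold gene pgl-1 had 28.6 CPM against 328, 230 and 247 CPM. The egg surface receptor gene egg-1 had 4.33 CPM against 149, 146 and 167 CPM. Replicate 1 differed from the other intestinal replicates for gld-1, an RNA-binding regulator of meiosis, with 11.2 CPM against 1025 and 973 CPM, and the endogenous level was 88.7 CPM. GFP alone recovered the list at a median of 18.5 FPKM, against 0, 11.5 and 13.2 FPKM in the intestinal replicates. Of 57 sperm genes 35 passed, with 5 higher and 1 lower, but 2 higher and 12 lower without replicate 1, and the sperm membrane gene fer-1 had 71.6 CPM against 194, 110 and 103.8 CPM.

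Lists of machinery used by all cells, histone genes apart, had medians below that of all coding genes, while most of their calls depended on the scaling. Of 76 cytosolic ribosomal protein genes 74 passed, with 0 higher and 46 lower. There were 14 lower with TMM, 12 without argk-1, 5 with median-of-ratios factors and 1 over all gene reads. The list had a median of -2.26 against all coding genes and -0.20 against genes of the same intestinal level. The large subunit gene rpl-10 had 73.1 CPM against 1392, 1034 and 1043 CPM. Of 12 mitochondrially encoded genes 7 were lower, or 2 over all gene reads, with a median of -2.54 against all coding genes and -0.06 against genes of the same level. The cytochrome b gene ctb-1 had 1600 CPM against 7791, 11708 and 9573 CPM. Of 20 vacuolar ATPase genes 9 were lower, with medians of -2.05 and -0.13. With TMM 2 were lower, and 0 were with median-of-ratios factors, over all gene reads or without argk-1. The subunit gene vha-12 had 34.7 CPM against 298, 324 and 291 CPM. Of 24 heat shock protein genes 15 passed, with 1 higher and 7 lower and medians of -1.75 and -0.54. There were 1 higher and 1 lower with median-of-ratios factors, and 0 and 11 without replicate 1. The mitochondrial chaperone gene hsp-6 had 201 CPM against 5778, 3720 and 3314 CPM. Of 72 histone genes 19 passed and 2 were lower, near the share over all genes, or 11 without replicate 1.

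**Figure D4:**
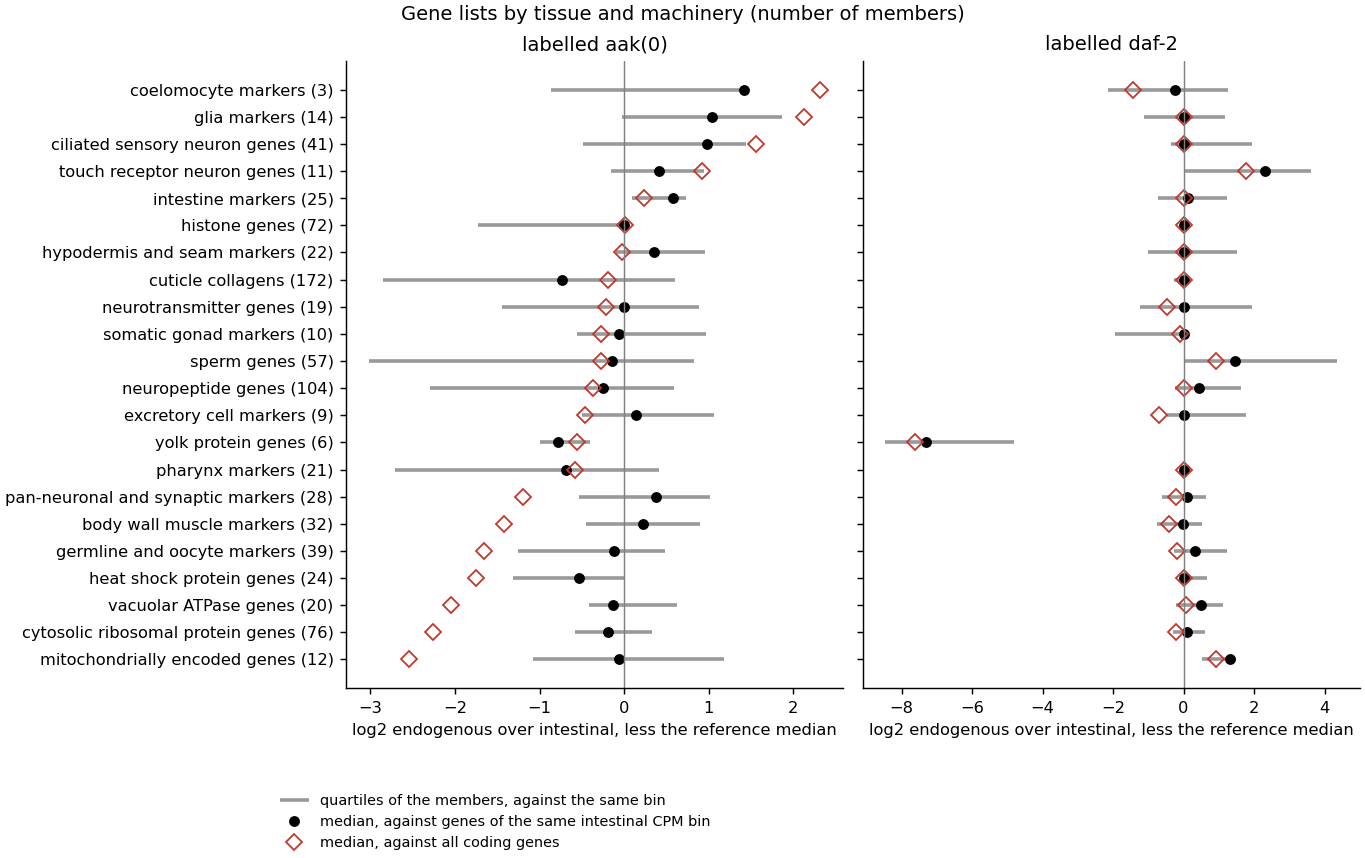
Median log2 ratio of the endogenous over the intestinal promoter for 22 gene lists, against all coding genes (open red diamonds) and against coding genes of the same intestinal level (black points, with grey bars for quartiles of the members), for libraries labelled aak(0) and daf-2. The ribosomal protein list moves from -2.26 to -0.20 and the germline list from -1.65 to -0.11 between the measures in aak(0), and the panels have separate scales.

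Few genes of at least 100 CPM were higher with the endogenous promoter. Beside argk-1 and aak-2, they were nhr-53, lam-3, cubn-1 and 1 gene without a symbol. The nuclear hormone receptor gene nhr-53 had 191 CPM against 0, 6.64 and 9.86 CPM, or 34.8 times the intestinal mean. The laminin alpha gene lam-3, for the basement membrane, had 143 CPM against 0, 51.5 and 37.3 CPM. The gene cubn-1 had 107 CPM against 0, 44.2 and 30.8 CPM. For lam-3 and cubn-1 the 4-fold ratio rested on the 0 in replicate 1, since the ratios on the log2 scale were 1.45 and 1.26 against the nearest replicate. In the daf-2 libraries nhr-53 was also called higher, with 17.9 CPM against 0, 8.96 and 0 CPM, while lam-3 did not differ in that direction, with 49.3 CPM against 191, 67.2 and 48.7 CPM.

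Some transcripts that every intestinal aak(0) library held were missing from the endogenous one. Of 1195 genes with at least 100 CPM in each intestinal aak(0) library, 5 had 0 reads there and 7 were under 1 CPM. The same count in daf-2 was 1 of 1012 genes, and that gene was hzl-1. The genotypes were closer at lower minimums. At 10 CPM in each intestinal library, 67 of 2658 genes (2.52%) had 0 endogenous reads in aak(0) and 61 of 2690 (2.27%) in daf-2. At 30 CPM these were 28 of 2082 and 17 of 2214. The oocyte zinc finger gene oma-1 (IV, 8888976 to 8890999) had 0 reads against 182, 219 and 217 CPM, at least 1092-fold below the intestinal mean with a floor of 3 reads. The histone chaperone gene nasp-1 had 0 reads against 176, 194 and 147 CPM, at least 915-fold below. The G protein alpha subunit gene gpa-16 had 0 reads against 179, 132 and 146 CPM, at least 809-fold below. Genes fbxa-215, of the F-box family, and perm-5, needed for the eggshell's permeability barrier, were also at 0, with 166, 114 and 121 CPM and 304, 155 and 111 CPM in the intestinal replicates.

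The remaining genes of the 12 furthest below the nearest intestinal replicate showed the same pattern. The glutamine-rich protein gene pqn-51 had 2 reads (0.126 CPM) against 166, 211 and 156 CPM, and the deadenylase subunit gene ntl-9 had 4 reads (0.251 CPM) against 163, 138 and 132 CPM. The lysosomal GTPase gene arl-8 had 1 read against 161, 94.4 and 93.7 CPM. The nuclear pore gene npp-11, the chromatin remodelling subunit gene phf-10 and the fatty acid elongation gene hpo-8 had 0 reads. Their lowest intestinal replicates held 76.4, 72.4 and 64.4 CPM. The peptide receptor family gene npr-28 had 2 reads against 147, 82.7 and 70.6 CPM. All 12 had reads in the library labelled endogenous daf-2, from 29.1 CPM for fbxa-215 to 273 CPM for oma-1. GFP alone also recovered them, with 20.02 FPKM of oma-1 against 13.5, 16.2 and 15.4 FPKM in the intestinal aak(0) replicates.

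**Figure D5:**
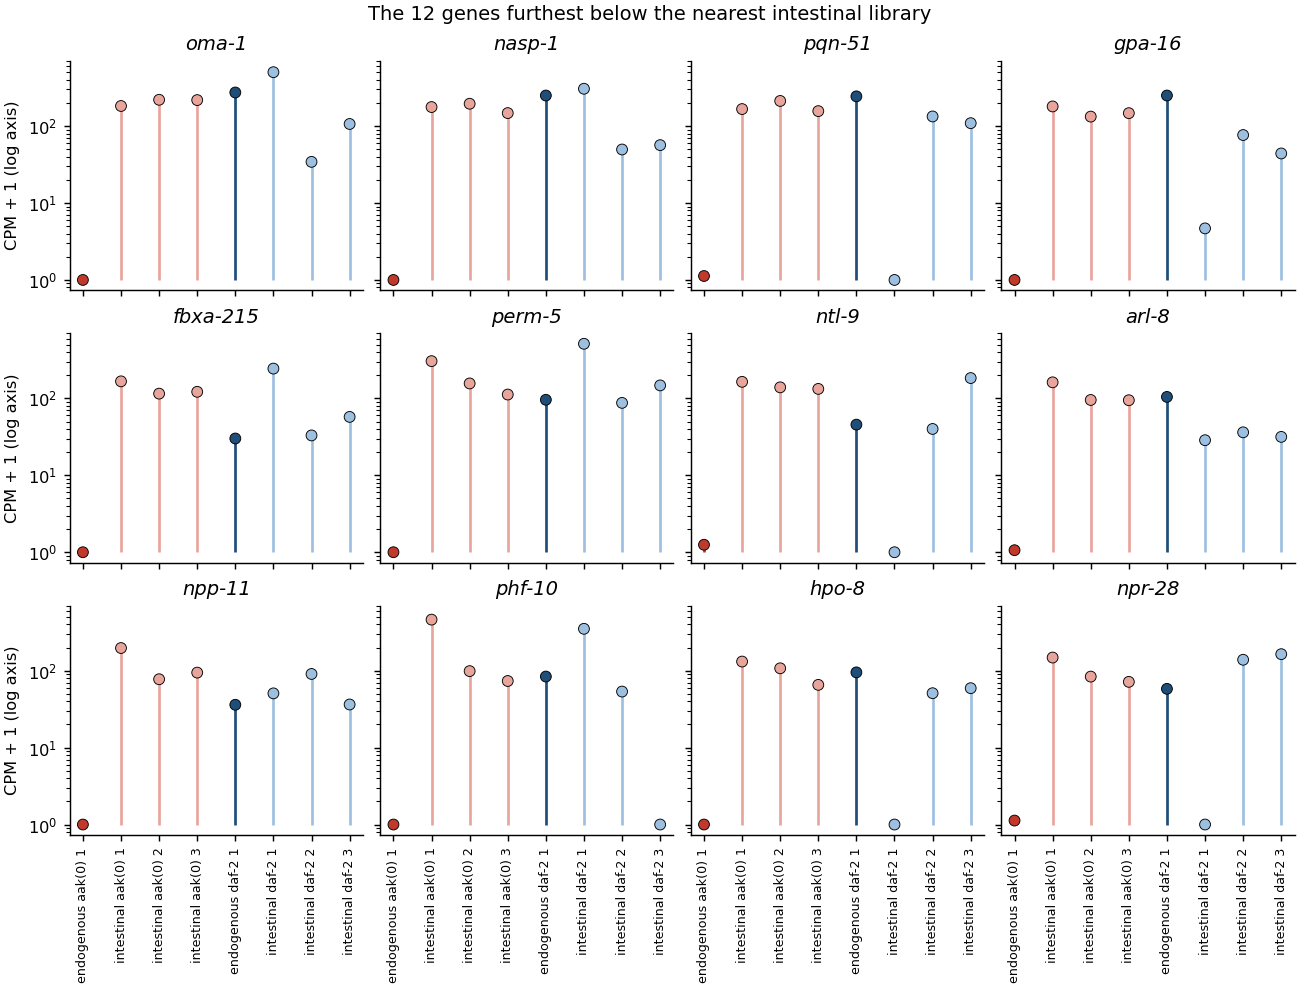
Level of the 12 genes furthest below the nearest intestinal replicate, as CPM + 1 on a log axis, 1 point per library (red, endogenous aak(0); light red, intestinal aak(0); dark blue, endogenous daf-2; light blue, intestinal daf-2). The endogenous aak(0) library lies at 0 to 0.251 CPM for each gene, and the library labelled endogenous daf-2 between 29.1 and 273 CPM.

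The same comparison in daf-2 used libraries that the aak(0) rule did not, from the same tables. Of 10501 genes past the minimum, 2260 were higher (21.5%) and 305 lower (2.9%), and 281 of the higher genes passed in both groups. Of the lists that were low in aak(0), mitochondrially encoded genes had a median of 0.92 in daf-2 with 0 of 12 higher. Others had medians of -0.21 for ribosomal protein genes, 0.07 for vacuolar ATPase genes, -0.19 for germline markers and -0.41 for body wall muscle markers, the median of all coding genes being 0. Ciliated sensory neuron genes had a median of 0 there, with 7 higher of the 26 that passed, and glia markers 0 with 1 higher of 6. Touch receptor neuron genes had 5 higher of the 8 that passed and a median of 1.78. Sperm genes had 22 higher of the 32 that passed, against 5 of 35 in aak(0). Whether the promoters differed between genotypes was not tested, with 1 endogenous library in each.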

How the data were processed

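Groups came from the labels. The tools named in the submitters' processing notes are STAR 2.7.1a, Trimmomatic 0.35, DESeq2 1.30.1 and RSEM, with the build WBcel235. Settings and use of strand are not stated, so overlapping and antisense genes cannot be separated. Endogenous-promoter values are raw counts per gene, as deposited. Rows naming no gene (62.1% of reads in aak(0)) were left out. For the intestinal promoter the authors deposited a signal per gene, which was reads divided by 1 factor per library, and whole reads were recovered (100% of values within 0.01). The authors deposited FPKM, used here for GFP alone. Its depth is therefore unknown.

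Every column was scaled to CPM over genes of category protein-coding, joined on gene ID, and compared as log2 with a pseudocount of 1 CPM. Genes in mixed categories (546) were added as an alternative. Of the sequence names 1117, and of the date-like names 2, were replaced through RefSeq's gene table. Computations used Python 3.11.15, pandas 2.3.3 and, in R 4.3.3, edgeR 4.0.16. They were tested on simulated data. Labels do not say whether libraries were grown as separate cultures. The p-values of edgeR may thus rest on technical variation between libraries.

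Named genes were the label genes, argk-1 and hmit-1.1, then 12 in each direction with at least 100 CPM and a symbol, furthest from the nearest intestinal library, then in each list the 3 most abundant and up to 4 past the fold; neighbouring genes and elt-2 were named outside this rule, after their values were seen. Members and the 22 lists were chosen with earlier results of these data known. Alternatives changed the scaling, pseudocount, minimum, fold, centre and libraries.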

Additional observations from a re-analysis of the deposited data

Results flagged for a closer look

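The ratio of endogenous over intestinal promoter ran in opposite directions in aak(0) and daf-2, against every intestinal library of each, for 18 named genes and 1 list. With 1 endogenous library per genotype these differences were not tested. Opposite directions were sought under the main scaling alone, in which argk-1 lowers all other endogenous aak(0) levels. Against intestinal aak(0) replicates 2 and 3, myo-2 had log2 ratios of only -0.38 and -0.68. In aak(0) the median of the vacuolar ATPase list was -0.95 without argk-1 and -0.26 over all gene reads. Higher in aak(0) were hzl-1, with log2 ratios of 0.69 and -8.97 (0 reads in the daf-2 library, so the latter depends on the pseudocount), and bbs-1, with 3.52 and -2.21. Lower in aak(0) were 16 genes. Of the germline and embryo genes, egg-1 had -4.86 and 4.61 and gpa-16 had -7.26 and 2.58. The ratio of pqn-51 was -7.31 and 1.58, that of arl-8 -6.79 and 1.70, and that of hpo-8 -6.66 and 1.36. Among vacuolar ATPase genes, vha-12 had -3.09 and 1.28, vha-19 -2.95 and 0.78 and vha-8 -2.38 and 1.43, and the median of their list was -2.07 and 0.07. The mitochondrial genes ctb-1 and ctc-1 had -2.60 and 0.94, and -1.64 and 1.52. The chaperone gene hsp-60 had -3.19 and 1.27, the ribosomal protein gene rps-4 -2.10 and 0.97, and the excretory canal gene exc-5 -3.51 and 1.198. The collagen gene col-37 had -5.61 and 0.69, myo-2 -2.03 and 0.76, and snb-1 -2.08 and 0.57. All but hzl-1 and ctc-1 were called in aak(0), and many were named for that.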

How the results depend on the processing

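No paired analysis was possible because the endogenous group has 1 library, so the groups share fewer than 2 replicate numbers, and the main counts come from no test. Against 3348 higher and 1318 lower genes, median-of-ratios scaling gave 6764 and 340, TMM 5325 and 504, and coding reads without argk-1 6492 and 494. Lower genes were 204 over all gene reads, 2156 at 2-fold and 2406 by fold alone. At 8-fold the counts were 1911 and 566, and less the chemoreceptor median per kb 1856 and 2147. Higher genes were 1376 with a pseudocount of 5 CPM, 708 at a minimum of 30 CPM and 1791 with the mean of both groups at 10 CPM. The quasi-likelihood test of edgeR called 1 higher and 0 lower (158 at an unadjusted p under 0.05). Leaving out each intestinal replicate gave 1481 to 2627 lower genes, the highest without replicate 1. In daf-2 it gave 471 to 959 lower genes against 305, the highest without replicate 1.

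Tissue lists above all coding genes numbered 5, and 9 with median-of-ratios, 10 with TMM, 8 over all gene reads, 9 with the median of the intestinal libraries, 8 without argk-1, 9 against genes of the same intestinal level, and 6 to 10 leaving out a replicate. Of the named genes called higher or lower, 3 changed sign less the chemoreceptor median, dat-1 to -1.02, mec-6 to -1.29 and ram-5 to -0.64. Of the other values for named genes, 1423 moved by less than the spread between replicates and 472 by more. Sign changes of named genes that were not called are among these values and were not counted apart. The settings without argk-1, with mixed categories, less the chemoreceptor median, by intestinal level, with edgeR and leaving out daf-2 libraries were chosen after seeing the data. A floor of 2.40 CPM limits replicate 1.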
